A study of Mus musculus with 8 samples.

Results

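The mRNAs described here are tubulin and actin components of the cytoskeleton and their regulators, chosen as abundant, 10 of the 54838 gene IDs counted in RNA immunoprecipitation sequencing (RIP-seq) of the embryonic mouse cortex. They were taken as a fixed list of Ensembl IDs, not by a threshold on measured values, but the list was chosen with earlier results of these data known. The list holds 2 alpha tubulins, Tuba1a (ENSMUSG00000072235) and Tuba1b (ENSMUSG00000023004), and 3 beta tubulins, Tubb5 (ENSMUSG00000001525), Tubb2a (ENSMUSG00000058672) and Tubb2b (ENSMUSG00000045136). It also holds 2 actins, Actb (ENSMUSG00000029580) and Actg1 (ENSMUSG00000062825), and 3 regulators of the filaments, Cfl1 (ENSMUSG00000056201), Stmn1 (ENSMUSG00000028832) and Map1b (ENSMUSG00000052727). Cells dissociated from the cortex of C57BL/6 embryos at embryonic day 12.5 were lysed, and RNA bound to a protein was recovered with an antibody on beads. The 4 libraries of the first group came from pull-downs with a rabbit antibody against Exosc10, a nuclease of the nuclear RNA exosome. For the 4 libraries of the second, normal rabbit IgG took the place of the antibody, and they measure RNA recovered without the specific antibody. No genotype or treatment is given for either group, and no library of the lysate's own RNA was analysed here.

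Microtubules are polymers of alpha and beta tubulin dimers, and actin filaments are polymers of actin monomers. Dividing progenitors of the cortex use both for mitosis and for the movement of their nuclei, and newborn neurons use them for migration and axon growth. Tubulin mRNAs are also known for a feedback on their own stability, in which free tubulin dimers lead to decay of tubulin mRNA during its translation. The RNA exosome degrades RNA from its 3′ end, and Exosc10 is the catalytic subunit that is found mainly in the nucleus and nucleolus.

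The question put to these genes was whether their mRNAs made up more or less of what the Exosc10 antibody recovered than of what IgG recovered. None of the 10 was called higher in the Exosc10 pull-down, and 1, Cfl1, was called lower, with edgeR's quasi-likelihood test and a threshold of 0.05 on the adjusted p. At an unadjusted p under 0.05 there were 2, Cfl1 and Tuba1b, both lower, where 30.6% of all genes tested reached that level in either direction. DESeq2 and limma-voom likewise called 0 of the 10 higher, and both called Cfl1 and Tuba1b lower. These tools called more genes in all, DESeq2 11.2% higher and 9.11% lower and limma-voom 20.1% higher and 18.01% lower, so that 2 of 10 lower lies near the background of limma-voom. In edgeR, over all 16716 genes tested, 7.92% were called higher and 5.82% lower, 13.7% in all, so a count of 1 in 10 lies near the background. Among the 2925 genes with a CPM at least that of Stmn1, the lowest member but one, 15.1% were called higher and 6.36% lower. The median log2 fold change, Exosc10 over IgG, was -0.08 over the 10 genes and -0.03 over all tested genes. In 0 of the 10 genes did the 4 Exosc10 values lie wholly above or below the 4 IgG values, against 19.1% of all tested genes. Each of the 8 libraries correlated most with the library of its number in the other group, so a pairing is possible. With the replicate number fitted as a block, edgeR called 0 of the 10 higher and 2 lower, Cfl1 and Tuba1b. That fit called 14.9% of all tested genes higher and 12.0% lower.

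**Figure D1:**
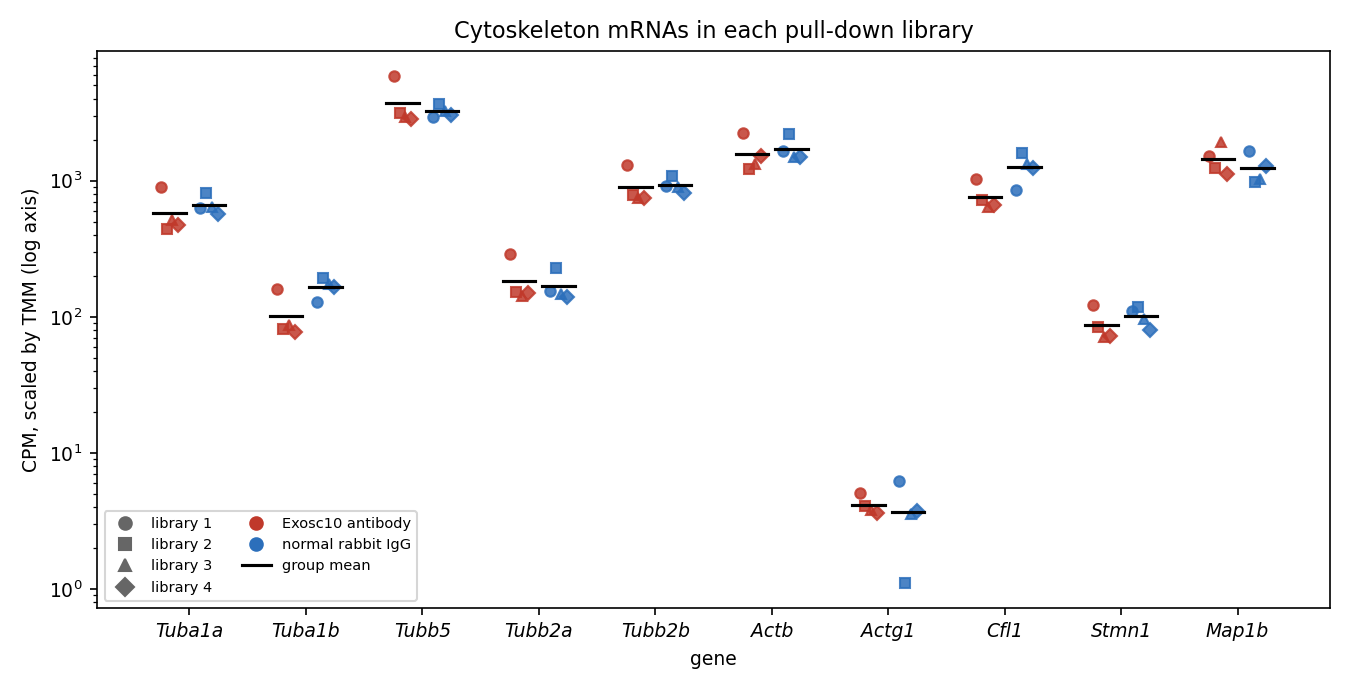
Levels in CPM (read counts scaled by TMM to a common library total, log axis) of the 10 cytoskeleton genes in each of the 4 Exosc10 libraries (red) and the 4 IgG libraries (blue), with the group mean as a line and the replicate number as the symbol. Exosc10 library 1 (red circle) is the highest Exosc10 library for every gene except Map1b, and the groups overlap for all 10 genes.

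Values are given as CPM, the read count of a gene scaled to a common library total after scaling with trimmed means of log ratios (TMM). A value is therefore a share of a pull-down and not an amount, so less of an mRNA and more of other RNAs cannot be told apart. The same holds for fewer cells of a type and less RNA per cell. Library totals ran from 21731971 to 34506709 counts with Exosc10 and from 20967743 to 30199449 with IgG, and library 1 was the shallowest of each group. Nothing in the labels ties the libraries to separate embryos or cultures, and the p-values rest on a spread between libraries that may be technical. Every pair of libraries of a group differed by more than sampling noise, with a chi-square per gene of at least 13.1. Over all genes, the pairs that held library 1 differed most in both groups. With Exosc10 they stood at 71.2 to 112, and the other pairs at 13.1 to 23.6. With IgG they stood at 75.7 to 113, and the other pairs at 26.1 to 45.2. The tissue was not checked against its marker genes, because the files give no gene symbols.

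By CPM, 5 of the 10 genes stood among the 50 highest of the 16716 tested. Tubb5 ranked 5, Actb 14, Map1b 28, Cfl1 46 and Tubb2b 50. Tuba1a ranked 109, Tubb2a 1227, Tuba1b 1890 and Stmn1 2925. The genes were chosen as abundant, so high ranks restate that choice. CPM is not corrected for transcript length, so these ranks order read counts and not numbers of molecules. Actg1, which encodes cytoplasmic gamma actin, did not stand among the abundant genes, at rank 12134, with 29 to 140 reads in a library. The other 9 genes each had at least 2185 reads in every library.

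The alpha tubulin genes lie next to each other on chromosome 15 and encode nearly identical proteins. In RefSeq on GRCm38.p6, the assembly that mm10 presents, Tuba1a spans 98949847 to 98953501 and Tuba1b spans 98931429 to 98934390, both on the minus strand. They are 15.5 kb apart, and the only RefSeq gene that reaches into the gap is the long noncoding RNA gene Gm41396, which also overlaps Tuba1b. Neither the handling of reads that map to several genes nor the strand setting is given in the sources used here, so the division of reads among these genes is uncertain.

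Tuba1b had the widest separation of group means on the log scale after Cfl1. It stood at 161, 81.4, 87.4 and 77.3 CPM in Exosc10 libraries 1 to 4, and at 128, 192, 175 and 165 CPM in IgG libraries 1 to 4. Exosc10 libraries 2 to 4 lay below every IgG library, while Exosc10 library 1 lay above IgG library 1, so the groups overlapped. Mean levels were 102 ± 39.5 CPM for Exosc10 against 165 ± 26.9 CPM for IgG (SD, n = 4 each). Its log2 fold change of -0.70 had an SE of 0.24 and a 95% interval from -1.21 to -0.19, and the adjusted p of 0.0650 by edgeR missed the threshold of 0.05. The call depended on the model. With the replicate number as a block, Tuba1b passed, at -0.76 (edgeR adjusted p = 0.0221), where 12.0% of all tested genes were called lower.

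Tuba1a, the main alpha tubulin of newborn neurons, in which mutations cause lissencephaly, stood at 895, 438, 517 and 476 CPM in Exosc10 libraries 1 to 4. In IgG libraries 1 to 4 it stood at 628, 817, 639 and 568 CPM. Again Exosc10 libraries 2 to 4 lay below all IgG libraries, and library 1 lay above all of them. The log2 fold change was -0.19 with an SE of 0.23 and a 95% interval from -0.69 to 0.31 (adjusted p = 0.623 by edgeR).

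The balance within the pair does not depend on the scaling between libraries. Tuba1b took 15.2%, 15.7%, 14.5% and 13.98% of the reads of both genes in Exosc10 libraries 1 to 4, a mean of 14.8% ± 0.76 (SD, n = 4). It took 17.0%, 19.0%, 21.5% and 22.5% in IgG libraries 1 to 4, a mean of 19.98% ± 2.47 (SD, n = 4). All 4 Exosc10 values lay below all 4 IgG values, Exosc10 library 1 included, and the difference of -5.15 percentage points ran from -6.15 to -4.32 when each library was left out in turn. As the groups did not overlap, leaving out a library could not turn the sign. This difference was described and not tested, and how often the shares of other gene pairs separate was not computed. Actg1 took 0.23% to 0.34% of the reads of Actg1 and Actb with Exosc10 and 0.051% to 0.38% with IgG, with overlap.

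The promoters of both alpha tubulin genes and of Cfl1 are printed because Tuba1b and Cfl1 were the members with an unadjusted p under 0.05, and Tuba1a is the neighbour of the first. RIP-seq reads RNA, so these letters describe the loci and carry no measurement. Each run is the 250 bases upstream of the RefSeq start on GRCm38.p6, written 5′ to 3′ on the gene's own strand, at chr15:98934391-98934640 (minus) for Tuba1b, chr15:98953502-98953751 (minus) for Tuba1a and chr19:5490205-5490454 (plus) for Cfl1. Capitals mark the TATA box TATAAA, the CCAAT box CCAAT and the GC box GGGCGG on either strand, and overlapping matches were allowed.
Tuba1b: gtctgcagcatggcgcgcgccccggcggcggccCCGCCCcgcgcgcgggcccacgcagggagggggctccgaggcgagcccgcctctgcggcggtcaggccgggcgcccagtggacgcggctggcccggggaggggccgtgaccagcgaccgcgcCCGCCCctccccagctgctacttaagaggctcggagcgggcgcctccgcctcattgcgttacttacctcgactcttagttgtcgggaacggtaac
Tuba1a: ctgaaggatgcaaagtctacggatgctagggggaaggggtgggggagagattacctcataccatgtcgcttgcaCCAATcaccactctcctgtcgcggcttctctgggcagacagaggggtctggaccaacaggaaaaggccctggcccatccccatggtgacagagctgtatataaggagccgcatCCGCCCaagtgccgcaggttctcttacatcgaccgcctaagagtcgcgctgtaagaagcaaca
Cfl1: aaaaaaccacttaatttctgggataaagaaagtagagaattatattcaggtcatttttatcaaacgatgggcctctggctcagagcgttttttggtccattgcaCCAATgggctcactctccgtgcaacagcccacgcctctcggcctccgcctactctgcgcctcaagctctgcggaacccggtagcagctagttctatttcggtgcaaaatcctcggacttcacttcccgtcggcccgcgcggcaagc
The Tuba1b window held 2 GC boxes and none of the other motifs, the Tuba1a window held 1 CCAAT box and 1 GC box, and the Cfl1 window held 1 CCAAT box. Among all 32851 promoters of the table, 32.7% held a GC box, 33.8% a CCAAT box and 12.4% a TATAAA match in the same window. Of the 7 members with a promoter in the table, 5 held a GC box, 4 a CCAAT box and 2, Tubb2a and Map1b, a TATAAA match. The CArG box, the site bound by serum response factor, was found in 1 of the 7, Actg1, and in 1.47% of all promoters. Tubb2b, Actb and Stmn1 had no entry.

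The 3 beta tubulin mRNAs did not pass the test in either direction. Tubb5, the beta tubulin of proliferating cells and the highest member by CPM, stood at 5857, 3112, 2948 and 2839 CPM in Exosc10 libraries 1 to 4. Its IgG values were 2946, 3632, 3264 and 3040 CPM, so that 3 of the 4 Exosc10 libraries fell within or just below the IgG range and library 1 lay far above it. The means were 3689 ± 1450 CPM and 3220 ± 305 CPM (SD, n = 4 each), and the log2 fold change was 0.20 with an SE of 0.24 and a 95% interval from -0.31 to 0.70 (adjusted p = 0.615 by edgeR). Without Exosc10 library 1 its sign turned, at -0.11 (edgeR adjusted p = 0.685). Tubb5 lies on chromosome 17 at 35833920 to 35838301.

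Tubb2a and Tubb2b encode nearly identical proteins and lie on chromosome 13, at 34074278 to 34078008 and 34127008 to 34130354, 49.0 kb apart. Mutations of TUBB2B in people disturb the layering and folding of the cortex. Tubb2b stood at 1310, 782, 751 and 746 CPM in Exosc10 libraries 1 to 4 and at 907, 1080, 894 and 815 CPM in IgG libraries 1 to 4. Exosc10 libraries 2 to 4 were below all IgG libraries, library 1 was above them, and the log2 fold change was -0.04 with an SE of 0.21 and a 95% interval from -0.50 to 0.41 (adjusted p = 0.919 by edgeR). Tubb2a stood at 289, 151, 141 and 150 CPM with Exosc10 and at 154, 228, 148 and 141 CPM with IgG, with a log2 fold change of 0.12 with an SE of 0.25 and a 95% interval from -0.41 to 0.66 (adjusted p = 0.778 by edgeR). Both groups had 1 high library for this gene, library 1 with Exosc10 and library 2 with IgG. Without Exosc10 library 1, the fold change of Tubb2a turned to -0.18 (edgeR adjusted p = 0.551).

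Tubb2a took 18.1%, 16.2%, 15.8% and 16.7% of the reads of this pair in Exosc10 libraries 1 to 4, and 14.5%, 17.4%, 14.2% and 14.7% in IgG libraries 1 to 4. The means were 16.7% ± 1.00 and 15.2% ± 1.502 (SD, n = 4 each). The groups overlapped through IgG library 2, unlike those of the alpha tubulin pair. RefSeq lists 2 further copies named for Tubb2a (Tubb2a-ps1 and Tubb2a-ps2), and the division of reads with them was not tested.

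**Figure D2:**
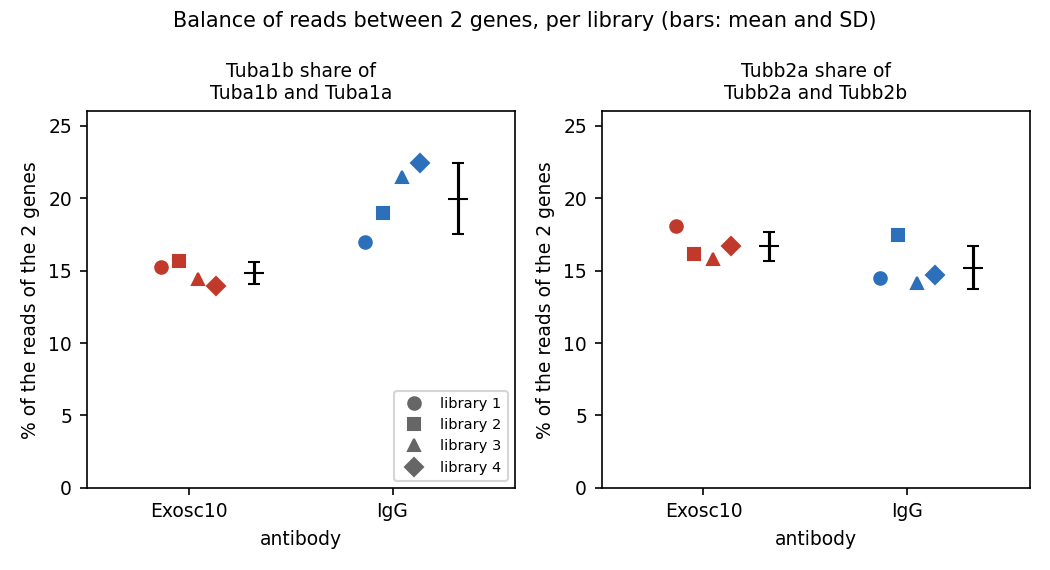
Share of Tuba1b in the reads of Tuba1a and Tuba1b (left) and of Tubb2a in the reads of Tubb2a and Tubb2b (right), in percent, for each Exosc10 (red) and IgG (blue) library, with group mean and SD as black bars (n = 4 each). Tuba1b took 13.98% to 15.7% of its pair with Exosc10 and 17.0% to 22.5% with IgG, without overlap, whereas the Tubb2a shares of the groups overlap. The difference was not tested, and how often the shares of other gene pairs separate was not computed.

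The actin mRNAs did not pass the test. Actb, which encodes cytoplasmic beta actin, is on chromosome 5 at 142903115 to 142907976. It stood at 2255, 1218, 1328 and 1511 CPM in Exosc10 libraries 1 to 4 and at 1649, 2193, 1485 and 1493 CPM in IgG libraries 1 to 4. The IgG values lay within the range of the Exosc10 values, and the log2 fold change was -0.11 with an SE of 0.22 and a 95% interval from -0.59 to 0.37 (adjusted p = 0.778 by edgeR). RefSeq lists 1 copy named for this gene, Actb-ps1, and the gene Gm38733 overlaps Actb.

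Actg1 is on chromosome 11 at 120345687 to 120348495, where it overlaps the microRNA gene Mir6935. It stood at 5.10, 4.11, 3.82 and 3.66 CPM with Exosc10 and at 6.28, 1.12, 3.55 and 3.78 CPM with IgG. The highest and the lowest of the 8 libraries were both IgG libraries. Its log2 fold change was 0.18 with an SE of 0.39 and a 95% interval from -0.65 to 1.00 (adjusted p = 0.794 by edgeR). Gamma actin mRNA is known as one of the most abundant transcripts of most cells. A search of RefSeq for copies named after the symbol, in the manner of Actb-ps1, found 0 for Actg1. Copies filed under other names could not be found in this way. What lies behind the low count was not tested, and the fold change of Actg1 rests on those few reads.

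Cfl1 encodes cofilin, which severs actin filaments and sets the pace of their turnover. The gene is on chromosome 19 at 5490455 to 5494031, on the plus strand. It stood at 1025, 717, 637 and 664 CPM in Exosc10 libraries 1 to 4 and at 851, 1592, 1331 and 1237 CPM in IgG libraries 1 to 4. Exosc10 library 1 lay above IgG library 1, the lowest of its group, and the other Exosc10 libraries lay below all IgG libraries.

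Cfl1 averaged 761 ± 179 CPM for Exosc10 against 1253 ± 307 CPM for IgG (SD, n = 4 each). The log2 fold change of -0.72 had an SE of 0.22 and a 95% interval from -1.20 to -0.24, so that the IgG level exceeded the Exosc10 level 1.65-fold. The edgeR adjusted p was 0.0472, just under the threshold. The call was lost without Exosc10 library 2, 3 or 4 or IgG library 2, 3 or 4, at edgeR adjusted p values of 0.103 to 0.142. The log2 fold change in those fits was -0.72 to -0.58, so the sign was kept. Calls were fewer over all genes as well, with 1.54% to 2.79% called lower in those fits against 5.82% with all libraries. Among the 50 highest genes by CPM, where Cfl1 stands, 26% were called lower and 14% higher.

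Stmn1 encodes stathmin, which binds tubulin dimers and promotes microtubule disassembly. It is on chromosome 4 at 134468320 to 134473843. Its values were 121, 84.2, 70.7 and 72.0 CPM with Exosc10 and 110, 118, 96.9 and 80.3 CPM with IgG. The groups overlapped widely, and the log2 fold change was -0.22 with an SE of 0.21 and a 95% interval from -0.66 to 0.22 (adjusted p = 0.502 by edgeR).

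Map1b encodes a microtubule-associated protein of growing axons and has the longest span of the 10 genes, on chromosome 13 at 99421464 to 99516602. It stood at 1518, 1229, 1928 and 1111 CPM in Exosc10 libraries 1 to 4 and at 1655, 971, 1028 and 1270 CPM in IgG libraries 1 to 4. Its order of the Exosc10 libraries differed from that of the other members, with library 3 the highest. IgG library 1 was the highest of its group, as it was for Actg1. The log2 fold change of Map1b was 0.068 without Exosc10 library 3 and 0.41 without IgG library 1. The log2 fold change was 0.23 with an SE of 0.23 and a 95% interval from -0.25 to 0.72 (adjusted p = 0.522 by edgeR).

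**Figure D3:**
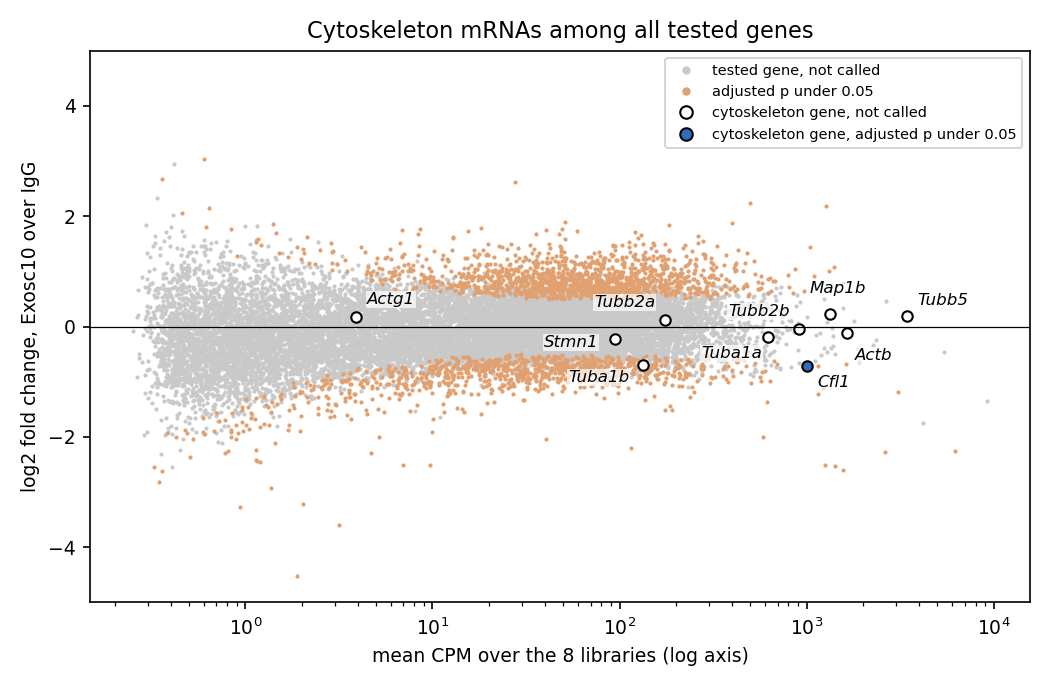
Log2 fold change, Exosc10 over IgG, against mean CPM over the 8 libraries (log axis) for the 16716 tested genes, with genes at an adjusted p under 0.05 in orange and the 10 cytoskeleton genes as labelled circles. Cfl1, the filled circle at -0.72, is the only one of the 10 past the threshold, and Actg1 lies far to the left of the others.

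Exosc10 library 1 stood apart for most of these genes. It was the highest Exosc10 library in 9 of the 10 genes, against 38.2% of all tested genes, and in 8 of the 10 its CPM was at least 1.5-fold the mean of the other 3 Exosc10 libraries. The same excess was found in 16.5% of all tested genes and in 26% of the 50 highest. The ratio was 1.97 for Tubb5, 1.97 for Tubb2a, 1.96 for Tuba1b, 1.87 for Tuba1a and 1.72 for Tubb2b. It was 1.67 for Actb, 1.61 for Stmn1 and 1.52 for Cfl1, against 1.32 for Actg1 and 1.07 for Map1b. Measured in the same way, each of Exosc10 libraries 2 to 4 exceeded 1.5-fold in 0 of the 10 genes, IgG library 1 in 2 and IgG library 2 in 1. Over all tested genes IgG library 1 showed the excess in 18.1%, more than Exosc10 library 1. IgG library 2 was the highest of its group in 8 of the 10 genes, against 25.1% of all tested genes. This comparison was chosen after the values had been seen.

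Together the 10 genes took 1.33% of the counts of Exosc10 library 1 and 0.797%, 0.818% and 0.758% of those of libraries 2 to 4. They took 0.961%, 1.08%, 0.863% and 0.888% in IgG libraries 1 to 4. Exosc10 libraries 2 to 4 were thus below every IgG library and library 1 was above all of them. The group means were 0.927% ± 0.27 and 0.948% ± 0.097 (SD, n = 4 each). Their difference of -0.021 percentage points was -0.16 without Exosc10 library 1, and it turned to positive values of up to 0.035 without Exosc10 library 2, 3 or 4 or IgG library 2. Exosc10 library 1 was also the shallowest of its group, at 21731971 counts, and within the Exosc10 group had the largest share of counts in its 10 highest genes, 3.73%, while that share was 3.85% to 8.05% in the IgG libraries. The part of depth and of that share in its tubulin and actin values was not tested.

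Without Exosc10 library 1, 2 of the 10 genes, Cfl1 and Tuba1b, were called lower and 0 higher in edgeR's quasi-likelihood test, against 6.55% and 9.52% of the genes tested. None was higher at an unadjusted p under 0.05 there. Tuba1b then had a log2 fold change of -1.001 (interval -1.38 to -0.62, edgeR adjusted p = 0.00282), and Cfl1 had -0.89 (interval -1.35 to -0.44, edgeR adjusted p = 0.0131). The fold change was negative for 8 of the 10 genes, and their median was -0.30, against -0.05 over all genes tested. In 4 of them, Tuba1a, Tuba1b, Tubb2b and Cfl1, the 3 remaining Exosc10 values lay below all IgG values, against 12.9% of all genes tested. Tuba1a stood at -0.47 (edgeR adjusted p = 0.0876) and Stmn1 at -0.42 (edgeR adjusted p = 0.112), both without a call. When the libraries numbered 1 of both groups were left out, Tuba1a was called as well, at -0.50 (edgeR adjusted p = 0.0204), beside Tuba1b at -1.11 and Cfl1 at -1.05. That fit called 15.1% of all genes tested lower and 17.1% higher. Exosc10 library 1 was singled out after its values had been seen. As it was the highest Exosc10 library for 9 of the 10 genes, leaving it out lowers their Exosc10 means. The direction of those shifts was therefore fixed in advance. IgG library 1 was the lowest IgG library for Tuba1b and Cfl1, so leaving it out as well raises their IgG means. The counts with all libraries remain the main ones.

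**Figure D4:**
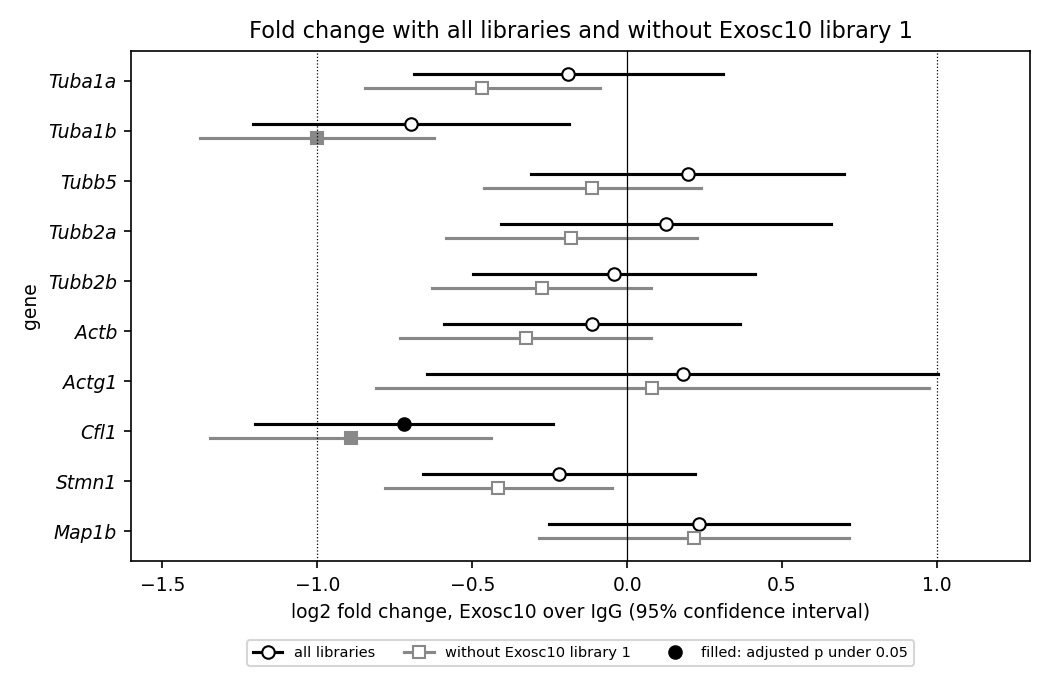
Log2 fold change, Exosc10 over IgG, with 95% confidence interval for the 10 genes from all 8 libraries (black circles) and without Exosc10 library 1 (grey squares); filled symbols mark an adjusted p under 0.05 and dotted lines a 2-fold difference. With all libraries only Cfl1 is filled, and without Exosc10 library 1 Cfl1 at -0.89 and Tuba1b at -1.001 are.

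Genes that missed the threshold are not thereby equal in both pull-downs, but the confidence intervals bound their differences. For 7 of the 9 genes without a call, the interval of the fit with all libraries lay inside a 2-fold difference in either direction. The exceptions were Tuba1b, whose interval reached -1.21, and Actg1, whose interval reached 1.00. The SE of the 9 genes other than Actg1 was 0.21 to 0.25 on the log2 scale.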

How the data were processed

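The authors deposited one table of raw read counts per gene for each of 8 libraries. Per the submitters' processing notes, reads were handled with bcl2fastq (2.17.1.14), STAR (version 2.5.2a) and then featureCounts (version 1.5.0-p1), on build mm10. The annotation release, strand setting and treatment of multi-mapping reads are not given in the sources used here.

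Counts were tested over all genes with edgeR 4.0.16 in R 4.3.3 (filterByExpr, minimum count 10 and total 15; TMM; quasi-likelihood F-test without covariate), with Benjamini-Hochberg adjustment over 16716 genes and a threshold of 0.05. The SE is the log2 fold change divided by the square root of F. The script was tested on simulated counts, in which genes drawn from all tested genes, at any level, were changed. It called 2% of the genes changed 1.5-fold, 44% at 2-fold, 86% at 3-fold and 84% at 4-fold, with 50 genes at each fold. Of its 113 calls, 5 were false. Alternatives used DESeq2 1.42.0, limma 3.58.1, other scalings and filters, thinning, a replicate block and fewer libraries.

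Groups and replicate numbers came from sample titles. The 10 members and all lists were chosen with earlier results of these data known, and all 10 members are named. Of the listed symbols, 0 could be matched to the Ensembl IDs, so the 9 lists of other cytoskeleton and marker genes were not tested. Positions and promoters were matched by member symbol to RefSeq (GRCm38.p6), for 10 and 7 of the 10 members. The deviations of libraries numbered alike correlated at 0.34, 0.095, 0.34 and 0.22, and the labels state no pairing. Because 0.095 is under the limit of 0.1 set here, numbers were not treated as pairs in the main fit. Each of the 8 libraries nevertheless correlated most with the library of its number in the other group. A pairing is therefore possible, and the SEs, intervals and adjusted p values of the main fit do not take it into account. The fit with a replicate block is given beside the main one.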

Additional observations from a re-analysis of the deposited data

Results flagged for a closer look

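In a group of 4 libraries, a highest or lowest value was singled out when its gap to the nearest value, divided by the group's range, exceeded Dixon's critical value of 0.829. Of 28 groups examined, 7 passed, where chance gives about 1 in 20. In 5 of the 7 the library was Exosc10 library 1 as the highest of its group. These were Tuba1b (0.879), Tubb5 (0.910), Tubb2a (0.934), Tubb2b (0.937) and the share of counts of all 10 genes together (0.896). Tuba1a came just short in the same library, at 0.827. The 10 genes vary together and share a library, so these values do not count as separate events. IgG library 2 was the highest of its group for Tubb2a (0.852) and for the share of Tubb2a in the reads of Tubb2a and Tubb2b (0.830).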

How the results depend on the processing

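No alternative called any of the 10 genes higher, and 1 was lower with all libraries in edgeR. The count of lower genes was 2 with DESeq2, limma-voom, the upper quartile, no filter, a mean of at least 5 CPM and the replicate block, the second being Tuba1b, and 3 without both libraries numbered 1. It was 0 to 2 when each library was left out in turn. The share of all tested genes called lower moved too, from 5.82% to 9.11% with DESeq2, 18.01% with limma-voom, 8.19% with the upper quartile, 3.49% with no filter, 9.92% at 5 CPM, 12.0% with the block, 15.1% without both libraries numbered 1, and 1.54% to 10.7% when each library was left out. The 1 gene remained Cfl1 with library totals, median ratios, TMM factors computed without the 10 genes, and thinning. The median log2 fold change of the 10 genes ran from -0.30 to 0.011 when each library was left out, and was -0.32 without both libraries numbered 1. Leaving out both was added after the data had been seen. The cause was not tested.

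Cfl1 ran from -1.05 to -0.58 and was called in 13 of 19 alternatives, at adjusted p values of 9.18e-05 to 0.142. Tuba1b ran from -1.11 to -0.58 and was called in 9 of 19, at 3.79e-05 to 0.192. Tuba1a was called in 1 of 19. Map1b (0.068 to 0.41 when each library was left out) and Stmn1 kept their sign in all 19 with 0 calls. Small fold changes turned their sign. Tubb5 was -0.035 and Tubb2a -0.0041 with limma-voom, -0.11 and -0.18 without Exosc10 library 1, and -0.16 and -0.23 without both libraries numbered 1. Leaving out each library gave at most 0.31 for Tubb5 and 0.31 for Tubb2a, at least -0.28 for Tubb2b and -0.33 for Actb, and up to 0.57 for Actg1. Tubb2b was 0.023, 0.040 and 0.042 without Exosc10 library 2, 3 and 4. Without IgG library 2, Tubb2b was 0.044, Actb 0.036 and Actg1 -0.12. Actg1 did not reach a mean of 5 CPM and has no value there. The replicate numbers were not treated as pairs, although each of the 8 libraries correlated most with the one of its number in the other group; with the replicate block Cfl1 stood at -0.72 (edgeR adjusted p = 0.0235) and Tuba1b at -0.76 (edgeR adjusted p = 0.0221). The difference in the summed share of counts was -0.021 percentage points with either denominator, and -0.16 to 0.035 when each library was left out. The lists by symbol were not run. The 9 genes other than Actg1 had at least 2185 reads in every library. With counts thinned to the smallest library total, Cfl1 stood at -0.71 (edgeR adjusted p = 0.0475) and Tuba1b at -0.69 (edgeR adjusted p = 0.0653). What limits the tests was not tested.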
